A study of Mus musculus with 17 samples.

Results

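The genes described here encode the subunits of oxidative phosphorylation (OXPHOS), the process by which mitochondria turn the energy of nutrients into ATP. They were chosen by symbol alone, from the systematic names of the subunits of complexes I to V and of the protein genes of the mitochondrial genome, with pseudogene names left out. Symbols came from the gene names of a single-cell table, which lacks 4 symbols that meet the rule, and 2 of the genes so left out reached 1 TPM in some library. Of 55450 genes in the bulk expression table, 98 were members, 85 encoded in the nucleus and 13 in the mitochondrial genome. The nuclear members comprised 35 genes of complex I, 4 of complex II, 8 of complex III, 20 of complex IV and 18 of complex V. Ndufa4 and its paralog Ndufa4l2 were placed with complex IV, and Atp5o was held under 2 identifiers. The mitochondrial members comprised 7 genes of complex I, 1 of complex III, 3 of complex IV and 2 of complex V.

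Complexes I and II pass electrons from NADH and succinate to ubiquinone, complex III passes them on to cytochrome c, and complex IV hands them to oxygen. Complexes I, III and IV pump protons while doing so, and complex V, the ATP synthase, makes ATP as the protons flow back. All complexes except complex II are built from the products of both genomes, so nuclear and mitochondrial transcripts must both be supplied. The mitochondrial genes are transcribed as long polycistronic RNAs that are then cut apart, whereas each nuclear gene has a promoter of its own. Tumor cells vary widely in how far they rely on this pathway as opposed to glycolysis.

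Cell lines were derived from female FVB/NJ mice carrying MMTV-PyMT, a transgene that drives the polyoma middle T antigen from the mouse mammary tumor virus promoter, and all groups share it. Lines came from the primary tumor of the mammary fat pad (MFP) and from metastases in bone marrow (BM), lung and lymph nodes (LN). They had been grown in culture and sorted for EpCAMhigh cells that were CD44low or CD44high, and the labels give MFP no CD44 status. Bulk RNA-seq held 14 libraries in 7 groups of 2 (MFP, and CD44low and CD44high lines of LN, BM and lung), the pair being distinct clonal isolates from different mice per the study's methods, and single-cell RNA-seq held 1 library each of lung CD44high (lungH), lung CD44low (lungL) and LN CD44high (lymphH) lines. All lines came from 10 mice, which per the study's methods were young adults of 1 narrow age range. In bulk RNA, fewer cells of a type and less RNA per cell cannot be told apart.

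The labels were compared with marker RNA first. Epcam, the epithelial adhesion molecule used for the sort, was 315 to 941 TPM (transcript counts scaled for length and library) in the 10 MFP, LN and BM libraries and 0 to 0.86 TPM in the 4 lung libraries. The summed TPM of 7 epithelial genes was 6209 and 7114 in MFP, 2079 to 4354 in LN and BM and 1.74 to 87.5 in lung. That of 7 mesenchymal genes, mostly Vim, was 15.02 and 34.41 in MFP, 302 to 777 in LN and BM and 1341 to 2300 in lung. Col1a2 and Thy1 were at 29.1 to 77.8 TPM in lung CD44low and at 0.97 or below in every other library. The sum of 5 cycling genes was 269.7 and 314 TPM in MFP, 374 to 4349 in LN and BM and 1.58 to 23.3 in lung. Macrophage markers summed to 39.2 TPM or less with Adgre1 at 0, and endothelial markers summed to 0.18 TPM or less. The highest macrophage sums were those of lung CD44low, where Lyz2 was 35.21 and 34.75 TPM, against 6.15 and 18.48 in lung CD44high and 0 and 0.09 in MFP. Cd44 RNA did not follow the CD44 labels: it was 146.7 and 82.7 TPM in LN CD44low against 49.0 and 52.3 in LN CD44high, and the CD44low and CD44high libraries overlapped in BM and in lung. CD44low and CD44high are therefore used here as names of the sorted lines. Epithelial, mesenchymal and cycling genes thus moved with every bulk comparison of LN, BM or lung lines with MFP and of lung with LN and BM. Lyz2 moved with those of lung lines with MFP, LN and BM, and Col1a2, Thy1, Lyz2, Krt8 and Krt18 with that between the lung lines. Their part in those results was not tested.

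The promoters of 3 nuclear members described here are printed first, chosen because each was called in at least 1 comparison and its window holds a motif. They are RefSeq windows of the GRCm38.p6 assembly, 250 bases before to 50 bases after the annotated start, and capitals mark matches on either strand to the core motifs GCATGCGC (bound by NRF1, nuclear respiratory factor 1) and CCGGAAG (bound by ETS factors such as GABP). Sdhb, chr4:140961021-140961320, plus strand, holds both; Uqcrc1, chr9:108936398-108936697, plus strand, holds the first; and Atp5h, chr11:115419870-115420169, minus strand, holds the second, read on the opposite strand.
Sdhb: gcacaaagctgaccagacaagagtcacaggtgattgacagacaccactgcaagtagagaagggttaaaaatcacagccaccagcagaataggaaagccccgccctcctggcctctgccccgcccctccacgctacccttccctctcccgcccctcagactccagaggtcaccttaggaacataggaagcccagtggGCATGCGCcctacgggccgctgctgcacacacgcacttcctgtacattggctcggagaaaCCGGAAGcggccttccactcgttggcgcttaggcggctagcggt
Uqcrc1: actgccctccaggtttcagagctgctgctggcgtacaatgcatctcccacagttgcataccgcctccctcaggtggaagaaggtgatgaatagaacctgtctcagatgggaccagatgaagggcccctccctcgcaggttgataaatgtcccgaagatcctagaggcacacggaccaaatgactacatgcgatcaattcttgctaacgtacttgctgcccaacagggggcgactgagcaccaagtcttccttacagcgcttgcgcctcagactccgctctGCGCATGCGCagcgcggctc
Atp5h: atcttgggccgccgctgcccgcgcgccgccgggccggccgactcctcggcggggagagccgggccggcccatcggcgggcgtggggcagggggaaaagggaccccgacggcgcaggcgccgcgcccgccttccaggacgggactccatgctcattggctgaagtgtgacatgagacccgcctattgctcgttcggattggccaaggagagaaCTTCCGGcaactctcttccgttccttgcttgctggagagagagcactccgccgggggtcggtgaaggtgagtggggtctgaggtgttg

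Windows on chromosome 18, which carries Atp5a1 and Ndufa2, were left out before counting. Of 84 nuclear symbols, 66 had a window among the rest. The NRF1 core was found in 10 of these 66 windows (15.2%) and in 2.8% of the 27025 promoter windows of all genes outside chromosome 18. The ETS core was found in 15 (22.7%, against 9.12%), and AAGATGGC, a core bound by the factor YY1, in 8 (12.1%, against 2.88%). The shorter hypoxia-response core ACGTG was found in 16 (24.2%, against 19.7%). A match describes the letters of the window and is no evidence of binding.

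Taken as a set, OXPHOS transcripts made up several percent of the TPM of each library, although the levels of single members ranged widely. The nuclear members together took 2.999 to 4.74% of the TPM of each library, and the 13 mitochondrial members 1.72 to 8.25%. Averaged over the 14 libraries, the highest nuclear member of each complex was Ndufc1 for complex I (643 TPM), the iron-sulfur subunit Sdhb for complex II (215 TPM), Uqcrq for complex III (874 TPM), Cox4i1 for complex IV (1939 TPM) and Atp5b, the catalytic beta subunit, for complex V (2357 TPM). Among mitochondrial members mt-Nd1 led complex I (6238 TPM), mt-Co1 complex IV (3554 TPM) and mt-Atp8 complex V (19103 TPM), and mt-Cytb, the only one of complex III, averaged 4084 TPM. The gene mt-Atp8 is 204 bases long and shares 43 bases with mt-Atp6, and TPM divides by length, so its value is uncertain. For the same reason of shared bases (7 for mt-Nd4l with mt-Nd4, 14 for mt-Nd5 with mt-Nd6 on the opposite strand), the split between those neighbours is uncertain, as is that between members and near-identical pseudogene copies in the nuclear genome.

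The balance between nuclear and mitochondrial transcripts set the lung CD44low lines apart. Mitochondrial members took 2.06 and 1.72% of TPM in the lung CD44low libraries and 6.16 and 8.25% in lung CD44high, with 4.27 and 4.23% in MFP. LN and BM libraries lay between 5.22 and 6.73%, except replicate 2 of BM CD44low, which was at 1.98% where replicate 1 was at 5.91%. Nuclear members took 4.74 and 3.65% in lung CD44low, 3.11 and 4.60% in lung CD44high and 2.999 and 3.65% in MFP, so that these groups overlapped. Mitochondrial TPM per nuclear TPM was 0.434 and 0.470 in lung CD44low, 0.428 in replicate 2 of BM CD44low and 1.16 to 1.98 in the other 11 libraries. The gene mt-Atp8 made up 52.0 and 53.9% of the mitochondrial sum in lung CD44high and 30.5 to 38.5% elsewhere. Without mt-Atp8, the mitochondrial sum was 1.27 and 1.15% in lung CD44low, 1.32% in replicate 2 of BM CD44low, 2.96 and 3.81% in lung CD44high and 2.86 to 4.16% in the remaining libraries, so by this sum lung CD44high was within the range of the other lines. All genes of the mitochondrial genome, including those that are no members, took 18.4 and 15.9% of TPM in lung CD44high and 4.28 to 10.1% in every other library.

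**Figure D1:**
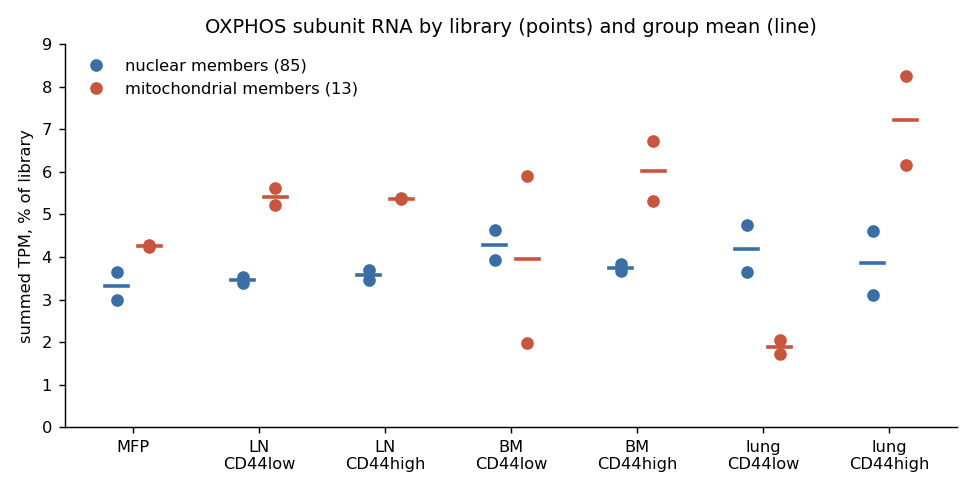
Summed TPM of the 85 nuclear (blue) and 13 mitochondrial (red) members as a percent of all TPM (vertical axis) in the 2 libraries of each of the 7 groups (points), with the group mean as a line. The mitochondrial points of lung CD44low (2.06 and 1.72%) and 1 BM CD44low library (1.98%) lie below all others.

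The composition of the nuclear sum differed as well. The 16 genes of the catalytic core, those that carry the redox centers, the core proteins of complex III or the catalytic head of complex V, made up 9.44 and 10.5% of nuclear OXPHOS TPM in lung CD44low, 11.6% in replicate 2 of BM CD44low, and 15.1 and 11.8% in lung CD44high. In the other 9 libraries the core made up 15.5 to 18.6%. Complex II made up 1.03 and 1.22% in lung CD44low, 1.57 and 1.30% in lung CD44high, 1.16% in replicate 2 of BM CD44low and 1.92 to 2.68% in the other 9. Complex V made up 23.1 and 23.0% in lung CD44low and 26.9 to 33.2% in every other library.

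The first question was how the lines from each metastatic site differed from the primary MFP line. Each gene was tested with limma on log2(TPM + 1) in 1 fit of all 14 libraries, and a gene was called at a Benjamini-Hochberg adjusted p under 0.05 over the 15348 genes tested. Of the nuclear members 81 were tested; Cox4i2, Cox8b, Cox8c and the second Atp5o identifier were too low, and all 13 mitochondrial members were tested. All fold changes are log2 fold changes on the log2(TPM + 1) scale, which understates changes of low genes. All comparisons with MFP share its 2 libraries.

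In lung CD44low, all 13 mitochondrial genes were below MFP in both libraries, with a median log2 fold change of -1.36 (0.0 over all genes tested). Of these 6 were called lower and none higher, where 23.1% of all genes tested were called lower and 39.3% had both libraries below both of MFP. The gene mt-Nd6, a complex I subunit and the only member transcribed from the other strand, was 697 and 680.0 TPM in MFP and 84.8 and 115 in lung CD44low (log2 fold change -2.79, SE 0.44, adjusted p = 0.0006). The gene mt-Nd4, a proton-pumping subunit of complex I, was 1858 and 1710.0 TPM in MFP and 297 and 328 in lung CD44low (-2.51, SE 0.60, adjusted p = 0.0069). In both genes the groups were far apart relative to the pair of libraries in each. The gene mt-Cytb, which encodes cytochrome b, was 4231 and 4051 TPM in MFP and 801 and 987 in lung CD44low (-2.22, SE 0.58, adjusted p = 0.011). The other called genes were mt-Nd3 (-2.86), mt-Nd5 (-1.40) and mt-Nd2 (-1.36), all of complex I. The remaining genes did not pass, among them all subunits of complexes IV and V: mt-Co1 was 3636 and 3722 TPM in MFP and 1433 and 1407 in lung CD44low (-1.37, adjusted p = 0.13), and mt-Co2, mt-Co3, mt-Atp6, mt-Atp8 and mt-Nd1 had log2 fold changes of -1.05 to -0.68. The spread used for these genes includes that between the BM CD44low libraries, and without either of those the count was 11 in place of 6. Without replicate 2 of lung CD44low the count was 3.

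**Figure D2:**
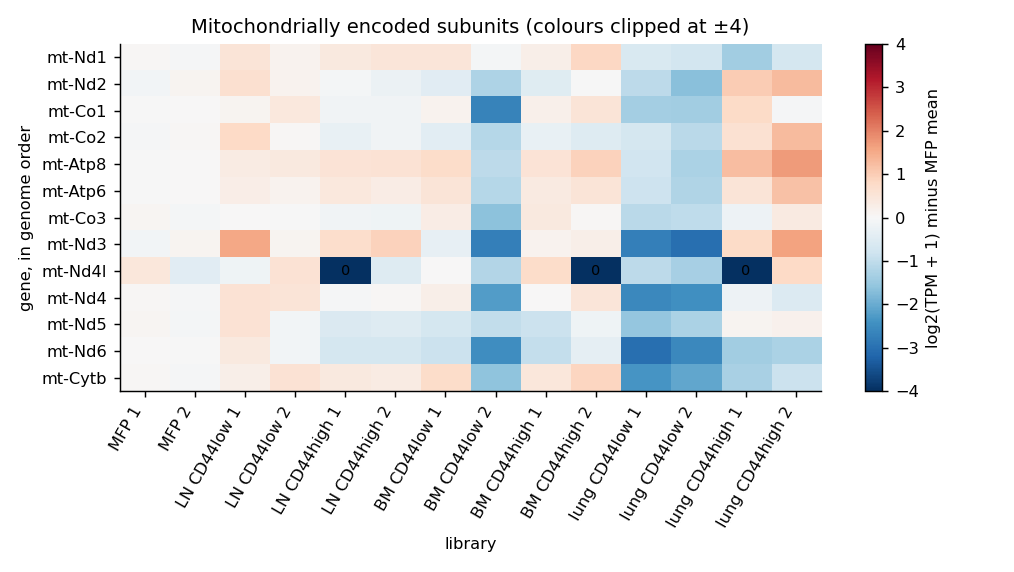
Level of the 13 mitochondrially encoded genes (rows, in genome order) in the 14 bulk libraries (columns), as log2(TPM + 1) minus the MFP mean, blue for lower and red for higher and clipped at 4 in either direction. The 2 lung CD44low libraries and replicate 2 of BM CD44low are blue throughout or nearly so, lung CD44high is mixed, and mt-Nd4l is listed at 0 in 3 libraries, marked 0.

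Nuclear members of lung CD44low changed in both directions. Of the 81 tested, 22 (27.2%) were called higher and 13 (16.0%) lower, against 21.9 and 23.1% of all genes tested, and median-ratio scaling gave 24 and 8. By complex, 11 genes of complex I were higher and 5 lower, 7 of complex IV higher and none lower, 3 of complex V higher and 4 lower, 1 of complex III higher and 2 lower, and 2 of complex II were lower. The falls included much of the catalytic core, where 7 of 16 genes were lower and 1, Ndufs7, was higher. Of the 65 remaining nuclear members 6 were lower and 21 higher. The total of 35 was 13 without replicate 1 of lung CD44low, 16 without replicate 1 of MFP and 21 without replicate 2 of MFP.

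The core genes that fell span 4 complexes. Uqcrc2, a core protein of complex III, was 219 and 276 TPM in MFP and 75.5 and 66.6 in lung CD44low (log2 fold change -1.78, SE 0.24, adjusted p = 0.0003). Uqcrc1, its partner, was 408 and 433 TPM in MFP and 187 and 179 in lung CD44low (-1.20, SE 0.27, adjusted p = 0.005). Atp5a1, the alpha subunit of the ATP synthase head, was 827 and 708 TPM in MFP and 295 and 318 in lung CD44low (-1.32, SE 0.25, adjusted p = 0.0022). None of these groups overlapped, and no LN or BM library was as low for any of the 3 genes. In complex II, which oxidizes succinate, Sdhb fell by 1.07 and the membrane anchor Sdhd by 1.20, whereas Sdha (-0.46, adjusted p = 0.13) and Sdhc (-0.44, adjusted p = 0.46) did not pass. In complex I, Ndufs1, which carries iron-sulfur clusters, fell by 1.05 (SE 0.27, adjusted p = 0.011). Atp5b, the partner of Atp5a1, was 1754 and 1793 TPM in MFP and 1872 and 1503 in lung CD44low, overlapping (-0.08, adjusted p = 0.80). Ndufs7 passed narrowly (0.57, adjusted p = 0.047) and not with median-ratio scaling (adjusted p = 0.061). Outside the core, Atp5j2, a membrane subunit of complex V, fell from 1182 and 1737 TPM in MFP to 637 and 436 (-1.44, SE 0.27, adjusted p = 0.0019).

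The genes that rose in lung CD44low were mostly small accessory subunits, which surround the core without carrying its redox centers. Ndufa5, of complex I, was 110.0 and 168 TPM in MFP and 774 and 557 in lung CD44low (log2 fold change 2.26, SE 0.42, adjusted p = 0.0017). Ndufa13 (also known as GRIM-19), of complex I, was 120.4 and 123 TPM in MFP and 305 and 239 in lung CD44low (1.14, SE 0.29, adjusted p = 0.010). Cox4i1, of complex IV, was 1091 and 1263 TPM in MFP and 2933 and 3232 in lung CD44low (1.39, SE 0.31, adjusted p = 0.0049). For each the lung CD44low libraries lay above both of MFP, although replicate 2 of BM CD44low was also high for Ndufa5 (642 TPM) and Cox4i1 (3525 TPM). Cox8a, Ndufv3, Ndufa7, Ndufa11, Cox6c and Uqcrq rose by 1.0 to 1.38. The called genes that rose had a median transcript length of 634 bases and those that fell of 1030 bases, with 659 bases over all nuclear members tested. Removing the trend on GC content and transcript length in each library left 22 higher and 13 lower.

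Ndufa4l2 stood apart from all other members. It encodes a paralog of the complex IV subunit Ndufa4 that is known as a target of hypoxia-inducible factor. It was 71.7 and 99.9 TPM in lung CD44low, listed at 0 in 10 libraries, including MFP and lung CD44high, and at 0.16 and 0.21 TPM in BM CD44high. It was called against MFP (adjusted p = 6.9e-09), and since MFP was listed at 0 no fold is given. Ndufa4 itself was 904 and 1245 TPM in MFP and 1417 and 995 in lung CD44low, and the groups overlapped. With an absolute log2 fold change over 2 required as well (the fold limit of the study, which applied it to counts with another test), Ndufa4l2 and Ndufa5 were the nuclear members called higher in lung CD44low (11.2% of all genes tested), and mt-Nd3, mt-Nd6, mt-Nd4 and mt-Cytb those called lower (7.62% of all genes).

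**Figure D3:**
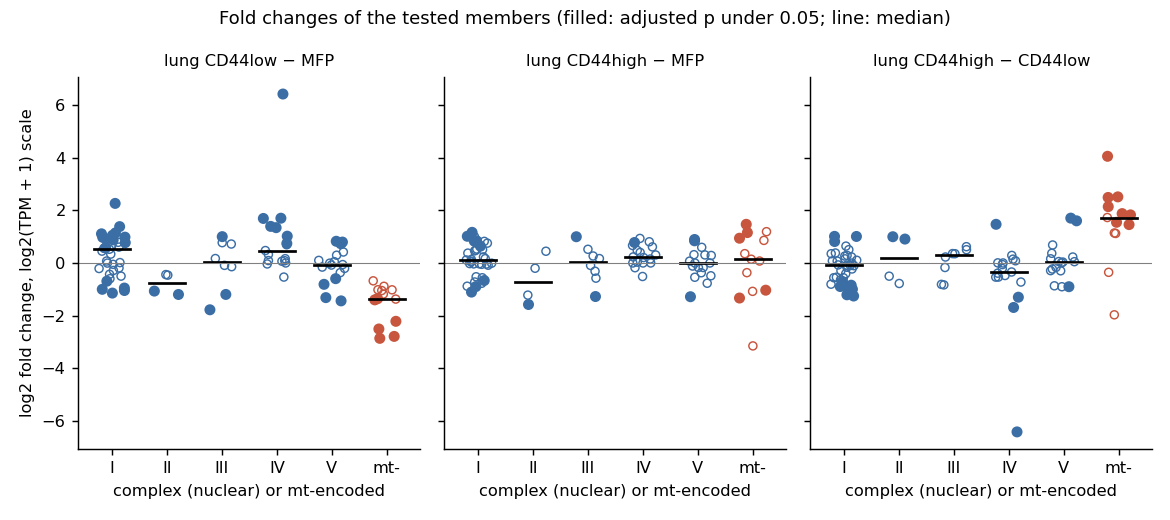
Log2 fold change (vertical axis) of the 81 nuclear members tested (blue), grouped by complex, and of the 13 mitochondrial members (red) in lung CD44low and lung CD44high against MFP and in lung CD44high against lung CD44low. Filled points had an adjusted p under 0.05 and lines are medians. The median of the mitochondrial members was -1.36, 0.14 and 1.73 in the 3 comparisons.

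In lung CD44high, 10 nuclear members (12.3%) were called higher and 6 (7.41%) lower against MFP, where 14.9% and 21.2% of all genes tested were, and recomputing TPM without the mitochondrial genome gave 14 and 5. Sdhb was 301 and 267 TPM in MFP and 82.6 and 109 in lung CD44high (log2 fold change -1.57, SE 0.21, adjusted p = 0.0003). Uqcrc2 was lower here too, at 95.2 and 107 TPM (-1.28, SE 0.24, adjusted p = 0.0027), and Atp5j2 at 484 and 715 TPM (-1.28, SE 0.27, adjusted p = 0.0046). For these 3 genes all 4 lung libraries lay below every MFP, LN and BM library, most narrowly for Atp5j2, where the highest lung library was at 715 TPM and the lowest of the others at 716. The largest rises were in accessory subunits of complex I. Ndufa1 was 262 and 342 TPM in MFP and 494 and 912 in lung CD44high (1.16, SE 0.33, adjusted p = 0.019), Ndufa13 rose by 1.04 and Ndufa7 by 1.01. The 2 lung CD44high libraries differed among themselves, 75 of 81 nuclear members being higher in replicate 2 by a median of 0.53, and the total of 16 was 10 without replicate 2. Without replicate 1 of MFP the total was 4, and without either BM CD44low library 25.

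Among mitochondrial members of lung CD44high 3 were called higher and 2 lower than in MFP, and with median-ratio scaling 2 were higher and none lower. The gene mt-Nd2 was 766 and 887 TPM in MFP and 1683 and 2004 in lung CD44high (log2 fold change 1.15, SE 0.32, adjusted p = 0.019). The gene mt-Co2 was 991 and 1067 TPM in MFP and 1585 and 2461 in lung CD44high (0.94, adjusted p = 0.0499), at the edge of the threshold. The gene mt-Atp8 was 13596 and 13675 TPM in MFP and 32034 and 44458 in lung CD44high (1.47, adjusted p = 0.040, and 0.070 with median-ratio scaling). The genes mt-Nd6 (261 and 285 TPM, -1.33) and mt-Nd1 (2271 and 3655 TPM against 6144 and 5673 in MFP, -1.03) were lower, and neither passed with median-ratio scaling (adjusted p = 0.091 and 0.12). The neighbours mt-Nd1 and mt-Nd2, which lie on the same strand, thus had differences of opposite sign under both scalings. With either MFP library left out the count of mitochondrial members called was 0.

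In LN and BM lines fewer nuclear members changed against MFP, and the calls depended on scaling. In LN CD44low 1 was higher and 1 lower (4.5% and 9.51% of all genes tested), in LN CD44high 4 and 4 (5.87% and 17.9%), in BM CD44low 13 and 0 (9.36% and 13.8%) and in BM CD44high 5 and 4 (8.38% and 18.6%). The median over all genes tested was -0.18, -0.30, -0.04 and -0.34 in these comparisons and 0.02, 0.02, 0.11 and 0.04 with median-ratio scaling. With that scaling the counts were 1 and 0, 15 and 0, 13 and 0, and 18 and 0. The rises that passed under both scalings included subunits of the c-ring and of complex IV. Atp5g3, a c-ring gene, was 337 and 363 TPM in MFP, 889 and 829 in LN CD44high (log2 fold change 1.29, SE 0.27, adjusted p = 0.0079), 869 and 1104 in BM CD44low (1.48) and 898 and 880.1 in BM CD44high (1.34). Cox8a was 582 and 1084 TPM in MFP, 1898 and 2861 in BM CD44low (1.55, SE 0.35, adjusted p = 0.011) and 2236 and 2006 in BM CD44high (1.41, adjusted p = 0.015). Ndufb2, of complex I, rose by 0.93 in LN CD44high and 1.05 in BM CD44high. In LN CD44low it was higher by 0.94 (adjusted p = 0.044), a call that held in 6 of 14 fits that left out 1 library. In all of these the metastatic lines lay above both MFP libraries. The totals rested on single libraries: without replicate 1 or 2 of MFP they were 2 and 2 in LN CD44high, 2 and 5 in BM CD44low and 5 and 3 in BM CD44high.

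The genes called lower in LN and BM lines included Atp5h and Ndufs3 and, in single groups, Atp5s, Ndufs5 and Atp5j2. Atp5h, which encodes a subunit of the ATP synthase stalk, was 1045 and 1347 TPM in MFP and between 581 and 827 in all 8 lymph node and marrow libraries, with a log2 fold change of -0.91 in LN CD44low (adjusted p = 0.025), -0.94 in LN CD44high (0.015) and -0.80 in BM CD44high (0.027). None of these 3 calls passed with median-ratio scaling, where the adjusted p was 0.26, 0.40 and 0.66. No mitochondrial member was called by limma in LN CD44low, LN CD44high or BM CD44high, and 0 had an unadjusted p under 0.05 in each. In BM CD44low, mt-Nd6 was called lower (-1.67, adjusted p = 0.021), but not with median-ratio scaling (adjusted p = 0.077). That group holds the library with low mitochondrial RNA: all 13 genes were lower in replicate 2 than in replicate 1, by a median of 1.66 in log2(TPM + 1), mt-Co1 being 4058 and 581 TPM.

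The second question was how CD44high and CD44low lines of 1 organ differed. In LN and BM limma called no nuclear and no mitochondrial member (0.189% of all genes tested were called in each direction in LN, and 0.0717% higher and 0.0782% lower in BM). At an unadjusted p under 0.05 there were 6 nuclear members and 1 mitochondrial in LN, and 0 nuclear and 3 mitochondrial in BM. Without replicate 1 of BM CD44low, 11 nuclear and 8 mitochondrial members were called in BM, the lone replicate 2 then being assumed to vary like the other groups.

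In lung, 8 of 13 mitochondrial members were higher in CD44high than in CD44low and none was lower, against 12.2% higher and 18.5% lower over all genes tested, with a median log2 fold change of 1.73. The gene mt-Nd3 was 196 and 161 TPM in CD44low and 2197 and 4011 in CD44high (log2 fold change 4.05, SE 0.69, adjusted p = 0.0017). The gene mt-Nd2 was 401 and 257 TPM in CD44low and 1683 and 2004 in CD44high (2.51, SE 0.32, adjusted p = 0.0003), and mt-Atp8 rose by 2.49, mt-Nd4 by 2.14, mt-Atp6 by 1.88, mt-Co2 by 1.83, mt-Nd5 by 1.55 and mt-Nd6 by 1.46. In 11 of 13 genes both CD44high libraries lay above both CD44low libraries, as in 30.3% of all genes tested. The exceptions were mt-Nd1, at 3837 and 3541 TPM in CD44low and 2271 and 3655 in CD44high (-0.36, adjusted p = 0.46), and mt-Nd4l, which was listed at 0 in 1 CD44high library and at 237 TPM in the other. With the GC and length trend removed, mt-Atp8 (1.23, adjusted p = 0.083) and mt-Nd6 (0.92, adjusted p = 0.13) no longer passed. Without replicate 2 of lung CD44low the count was 4, and without replicate 2 of lung CD44high or replicate 1 of lung CD44low it was 5.

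Of nuclear members 8 (9.88%) were higher and 11 (13.6%) lower in lung CD44high than in lung CD44low, shares below those of all genes tested. Recomputing TPM without the mitochondrial genome gave 12 higher and 8 lower, and removing the GC and length trend 14 and 9. All 6 core genes called were higher in CD44high: Atp5a1, Ndufs1, Ndufv1, Sdhd, Sdha and Ndufs8. Atp5a1 was 295 and 318 TPM in CD44low and 924 and 941 in CD44high (log2 fold change 1.60, SE 0.25, adjusted p = 0.001), the highest values of all 14 libraries. Ndufv1, which carries the NADH site of complex I, was 125 and 124 TPM in CD44low and 236 and 267 in CD44high (1.01, SE 0.21, adjusted p = 0.0055). Atp5h was 783 and 582 TPM in CD44low and 1908 and 2541 in CD44high (1.70, SE 0.23, adjusted p = 0.0003), above every other library including MFP. The genes lower in CD44high were accessory subunits, among them Ndufa4l2 (listed at 0 in CD44high), Ndufa5 (-1.26, adjusted p = 0.046), Ndufs5 (-1.21), Ndufb7 (-1.0) and Ndufa11 (-0.94). Atp5b, Uqcrc2, Uqcrc1, Sdhb and Sdhc did not pass in this comparison. The total of 19 was 9 without replicate 1 of lung CD44low and 11 without replicate 1 of lung CD44high.

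**Figure D4:**
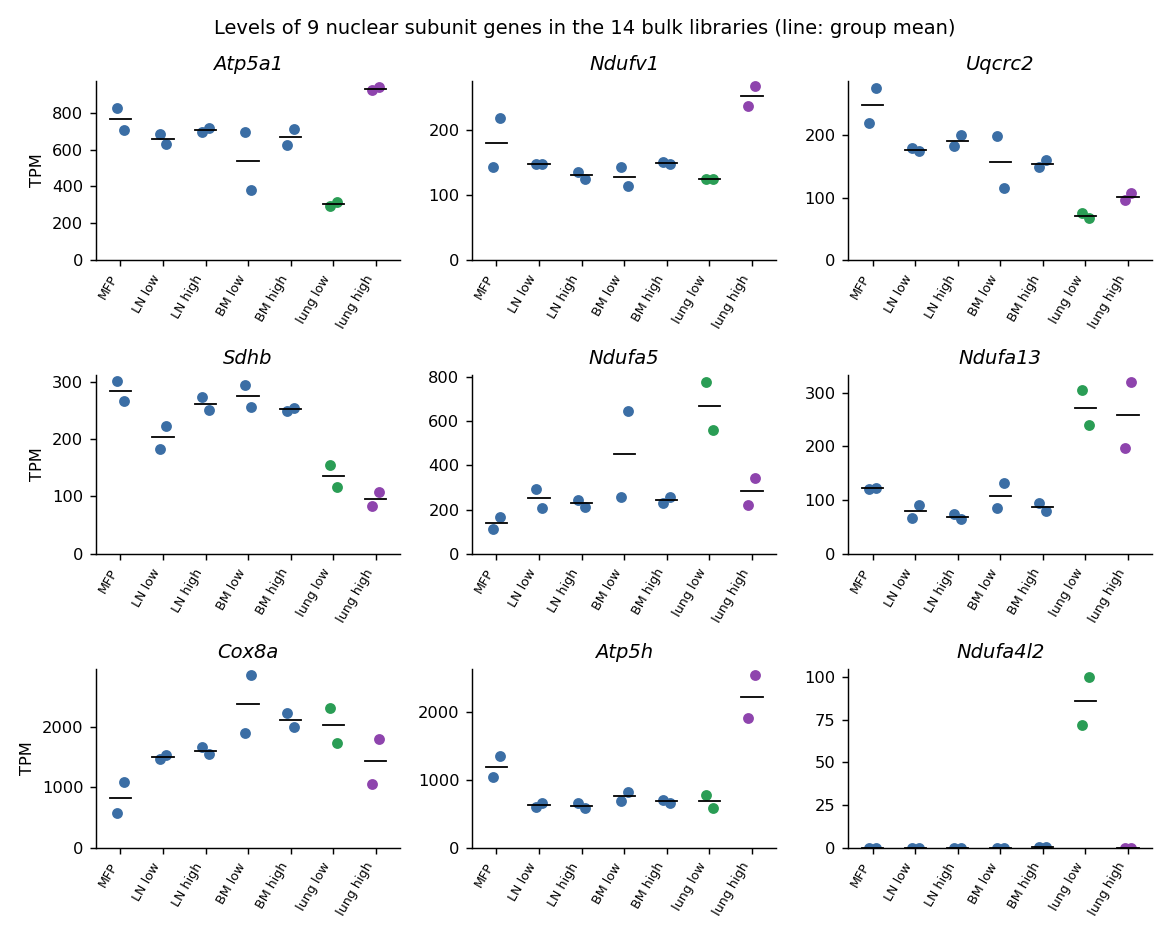
TPM (vertical axis, from 0) of 9 nuclear members in the 2 libraries of each bulk group (points, with the group mean as a line); lung CD44low is green and lung CD44high purple. Atp5a1 and Uqcrc2 were lowest in lung CD44low, Sdhb was lowest in lung CD44high (82.6 and 109 TPM), Atp5h was highest in lung CD44high and Ndufa4l2 was above 1 TPM in lung CD44low alone.

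Averaged over the 3 organs, CD44high lines had 3 nuclear members called higher and 5 lower than CD44low lines (3.59% and 13.7% of all genes tested; 3 and 3 with median-ratio scaling) and 4 mitochondrial members higher. No nuclear or mitochondrial member separated the 6 CD44high from the 6 CD44low libraries (0.0326% of all genes tested lay above and 0.417% below without overlap). Without replicate 1 of BM CD44low 26 nuclear and 10 mitochondrial members were called.

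The 4 lung libraries were also set against the 8 of LN and BM, to ask what the lung lines of either CD44 status shared. Here 26 nuclear members were called higher and 20 lower (35.9% and 24% of all genes tested), but 15 and 28 with median-ratio scaling, which moved the median of all genes tested from 0.20 to -0.01. Core genes lay mostly on the lower side, with 3 higher and 8 lower of 16. Sdhb was 82.6 to 155 TPM in the 4 lung libraries and 183 to 294 TPM in the 8 others (log2 fold change -1.11, SE 0.13, adjusted p = 4.3e-05). Atp5f1, a stalk subunit of complex V, was 193 to 262 TPM in lung and 387 to 493 TPM in the others (-1.03, SE 0.12, adjusted p = 6.7e-05), and Uqcrc2 was 66.6 to 107 against 115 to 199 TPM (-0.97, SE 0.15, adjusted p = 0.0003). Ndufa13 was 197 to 320.2 TPM in lung and 64.8 to 132 TPM in the others (1.62, SE 0.18, adjusted p = 3.8e-05), and Ndufa1 (1.11) and Ndufa2 (0.95) were higher in all lung libraries. These 6 differences kept their direction and passed with either scaling. No mitochondrial member was called higher in lung, and 4 were lower (6 with median-ratio scaling).

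Whether the CD44 difference was larger in lung than in the other organs was tested as an interaction, and both interactions share the 4 lung libraries. Against LN, 5 nuclear members had a higher and 3 a lower difference in lung (8.93% and 10.6% of all genes tested), and 6 mitochondrial members a higher one. With median-ratio scaling 1 and 3 nuclear and 4 mitochondrial members were called. Against BM, 3 nuclear members were higher and 3 lower (6.43% and 8.86%) and 1 mitochondrial member higher, and with median-ratio scaling 1 and 2 nuclear and no mitochondrial member were called. Atp5h passed in both, by 1.73 against LN (SE 0.32, adjusted p = 0.0044) and by 1.86 against BM (SE 0.32, adjusted p = 0.0032), and under both scalings.

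Several complex IV subunits have paralogs whose use is known to vary with tissue or oxygen, and the c-ring protein of complex V is encoded by 3 genes. In these cells the widely expressed form predominated in each pair. Cox4i1 averaged 1939 TPM and Cox4i2 0.156, Cox6a1 1424 and Cox6a2 0.677, Cox6b1 1139 and Cox6b2 0.326, Cox7b 431 and Cox7b2 0.616, and Cox8a 1704 TPM, with Cox8b listed at 0 in all libraries and Cox8c at 0.19 TPM or less. Cox6b2, the testis form, was 1.71 and 2.85 TPM in lung CD44low and listed at 0 in the 12 other libraries. Cox6a2, a muscle form, was 2.50 and 2.02 TPM in lung CD44low and 1.16 or less elsewhere. Cox7a1, another muscle form, was 3.36 and 2.16 TPM in lung CD44high against 1.59 or less elsewhere, with Cox7a2 at 519.9 TPM and the related Cox7a2l at 229.6 TPM on average. Values this low rest on few reads. Of the c-ring genes, Atp5g1 averaged 618, Atp5g2 85.8 and Atp5g3 689 TPM, and the order of Atp5g1 and Atp5g3 differed among lines: Atp5g1 was higher in MFP (552 and 593 against 337 and 363 TPM) and Atp5g3 in every BM and LN CD44high library.

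Genes that serve the pathway from outside the 5 complexes were described by lists, whose counts stand beside 21.9% higher and 23.1% lower over all genes tested in lung CD44low and 14.9% and 21.2% in lung CD44high. Of 78 mitochondrial ribosomal proteins, which translate the 13 mitochondrial mRNAs, 5 were higher and 26 lower in lung CD44low than in MFP and 2 and 28 in lung CD44high, with median log2 fold changes of -0.43 and -0.51 (0.0 and -0.04 over all genes tested). Median-ratio scaling gave 5 and 20, and 2 and 17. Of 46 assembly factors 5 were higher and 7 lower in lung CD44low, and 4 and 8 in lung CD44high, shares below those of all genes tested. Of 16 genes of the mitochondrial import machinery, porins, chaperones and inner membrane scaffold, none was higher and 9 were lower in lung CD44low, and none and 4 in lung CD44high, the latter near the share of all genes. Phb2, a prohibitin of the inner membrane, was 331 and 249 TPM in MFP, 77.2 and 77.7 in lung CD44low and 72.7 and 103 in lung CD44high (log2 fold changes -1.88 and -1.72).

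Among 23 tested regulators of mitochondrial transcription and biogenesis 1 was higher and 7 lower in lung CD44low (21.9% and 23.1% of all genes tested), and 4 and 3 in lung CD44high (14.9% and 21.2%). Lrpprc, which stabilizes mitochondrial mRNAs, was 44.3 and 41.7 TPM in MFP, 1.86 and 4.47 in lung CD44low (log2 fold change -3.48, SE 0.42, adjusted p = 0.0001) and 14.3 and 11.2 in lung CD44high (-1.69, adjusted p = 0.010). In replicate 2 of BM CD44low Lrpprc was at 12.03 TPM. The part of Lrpprc in the mitochondrial shares of these lines was not tested. Tfam, which packages and transcribes mitochondrial DNA, was 33.8 and 33.7 TPM in MFP, 15.5 and 14.1 in lung CD44low (-1.14, adjusted p = 0.0043) and 15.9 and 15.5 in lung CD44high (-1.06, adjusted p = 0.0079), and the difference between the lung lines was 0.08 (adjusted p = 0.87). Ppargc1a, a coactivator of mitochondrial biogenesis, was 0.35 and 0.04 TPM in MFP, 0.34 and 0.07 in lung CD44low, 4.37 and 2.95 in lung CD44high and 6.94 to 12.5 in LN and BM.

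Among electron carriers, carriers of adenine nucleotides and related proteins (8 tested), 1 was higher and 4 lower in lung CD44low (21.9% and 23.1% of all genes tested), and 1 and 5 in lung CD44high (14.9% and 21.2%). Ucp2, an inner membrane carrier, was 434 and 445 TPM in MFP, 17.2 and 17.4 in lung CD44low and 28.5 and 18.8 in lung CD44high (log2 fold changes -4.59 and -4.19). Slc25a4, an ADP/ATP translocase, was 379 and 342 TPM in MFP and 952 and 921 in lung CD44low (1.38, adjusted p = 0.0003), while its paralog Slc25a5 was 1044 and 843 TPM in MFP and 326 and 379 in lung CD44high (-1.41, adjusted p = 0.0004). Of 23 genes of the TCA cycle and of pyruvate entry 2 were higher and 8 lower in lung CD44low, and 2 and 6 in lung CD44high, the 6 being near the share of all genes. The rises were kinases that switch off pyruvate dehydrogenase: Pdk2 was 3.95 and 4.07 TPM in MFP, 33.04 and 35.54 in lung CD44low and 87.0 and 61.4 in lung CD44high, and Pdk4 was 13.2 and 12.2 TPM in lung CD44low and listed at 0 or 0.04 in all other libraries. Dlat, a core subunit of pyruvate dehydrogenase, was 63.2 and 59.8 TPM in MFP and 14.3 and 11.0 in lung CD44high (-2.21, adjusted p = 0.0001).

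The single-cell libraries give a second measurement of 3 of these lines, with 1 library per line and therefore no test. The limits followed the study's (more than 250 genes and under 10% of counts in mitochondrial genes). The second was computed here from the 13 mitochondrial members alone, without other mitochondrial genes. With these limits 1236 of 3623 barcodes remained in lungH, 348 of 2808 in lungL and 2562 of 3297 in lymphH, with medians of 557, 4011 and 585 counts per cell. These numbers of cells differ from those the study reports. The second limit cuts on the mitochondrial members themselves, so their values are also given without it. Columns carried running numbers in place of barcodes, so barcodes shared between libraries could not be counted, and no doublet caller was run. Intervals are exact 95% intervals and cover counting error only. Epcam had 3 counts in lungH, 0 in lungL (which allows up to 3) and 936 in lymphH, and Col1a2 had 0, 3192 and 2. Krt18 was 2.59 counts per 10000 in lungH, 0.522 in lungL and 1.17 in lymphH. Mki67 was 1.84, 0.266 and 0.87, Top2a 3.17, 1.38 and 1.52, and Cenpf 1.31, 0.189 and 0.564. For these genes the order of lungH and lymphH was opposite to bulk. Krt8 (1.67, 0.135 and 2.805) and Birc5 (1.68, 0.635 and 8.78) were highest in lymphH, as was Aurka. The part of these markers in the single-cell results was not tested.

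Mitochondrial members took 2.13% of counts in lungH (2.11 to 2.15), 0.590% in lungL (0.580 to 0.600) and 1.97% in lymphH (1.96 to 1.98). Without the mitochondrial limit the shares were 2.82, 0.689 and 2.77%. All 10 mitochondrial members with at least 50 counts in both lung libraries were more than 2-fold higher in lungH (7.78% of all genes with such counts), with a median ratio of 3.91 and a range of 2.84 to 6.17. The gene mt-Co3 was 36.9 counts per 10000 in lungH, 13.02 in lungL and 33.1 in lymphH, and mt-Cytb 24.3, 6.20 and 18.4. The gene mt-Nd1, whose difference between the lung lines did not pass in bulk, was 23.8, 7.196 and 23.8 counts per 10000. The ratio of lungL to lymphH was 0.164 to 0.393 for these 10 genes, and that of lungH to lymphH 0.655 to 1.42 with a median of 1.02. Over the cell filters and the mean of shares per cell, the summed ratio of lungH to lungL ran from 3.10 to 4.09, and that of lungH to lymphH from 0.719 to 1.52.

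Nuclear members took 1.76% of counts in lungH (1.75 to 1.78), 1.13% in lungL (1.12 to 1.15) and 1.95% in lymphH (1.94 to 1.97). Of 74 with at least 50 counts in both lung libraries 69 had a ratio of lungH to lungL above 1, where 51.8% of all genes with such counts did. More than 2-fold higher in lungH were 15, and none was more than 2-fold lower (7.78% and 7.29% of all genes), and the median ratio was 1.504 (1.02 over all genes). The median log2 fold change of nuclear members between the lung lines in bulk was -0.08, and members that bulk called lower in lung CD44high did not differ in this: all 7 with enough counts had a ratio above 1 in single cells, with a median of 1.29, as did all 7 called higher. The bulk and single-cell libraries differ in protocol, in whole-transcript against 3' reads and in counts per cell, and the part of these in the difference was not tested.

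Atp5h was the nuclear member with the largest ratio of lungH to lungL, at 9.45 counts per 10000 in lungH, 2.46 in lungL and 3.21 in lymphH, and it was highest in the lung CD44high line in bulk too. Atp5e, the epsilon subunit of the ATP synthase head, was 2.16, 0.829 and 2.30 counts per 10000, and Ndufs7, of complex I, 1.24, 0.495 and 0.931. Of the 5 members lower in lungH than in lungL, the lowest ratios were those of Uqcrh, the hinge protein of complex III (1.20 and 2.16 counts per 10000), and Sdhb (0.615 and 0.914), and Sdhc, Cox6c and Cox7a2l had ratios of 0.928 to 0.945. Sdhb was highest in lymphH, at 1.39, and Uqcrh at 2.77. Atp5a1 differed little, at 5.72 in lungH, 4.95 in lungL and 6.79 in lymphH, unlike in bulk. Ndufa5 had 85 counts in lungH and 27 in lungL (0.385 and 0.122 per 10000), opposite to its order in bulk, and Ndufa4l2 had 1 count in lungL and 0 in both other libraries.

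**Figure D5:**
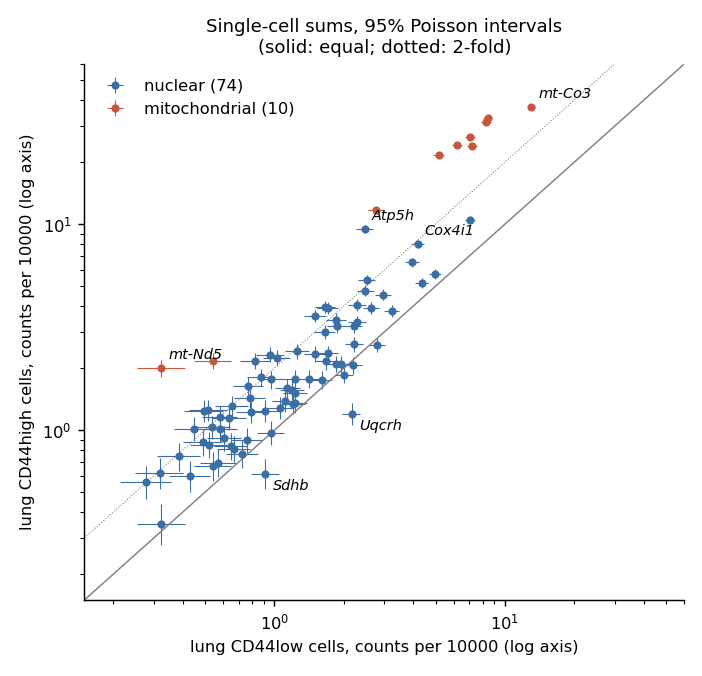
Counts per 10000 summed over cells in the lung CD44low (horizontal) and lung CD44high (vertical) single-cell libraries, both axes logarithmic, for members with at least 50 counts in both, 74 nuclear (blue) and 10 mitochondrial (red), with exact 95% Poisson intervals. The solid line marks equal levels and the dotted line a 2-fold higher level in CD44high; all 10 mitochondrial members lie above the dotted line, and 5 nuclear members, led by Uqcrh and Sdhb, lie below the solid one.

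Against lymphH, the lungH library had 2 nuclear members more than 2-fold higher and 4 more than 2-fold lower of 76 (12.5% and 5.43% of all genes), with a median ratio of 0.866 and 21 of 76 ratios above 1 (57% of all genes). The higher ones were Atp5h (2.95) and the second Atp5o identifier (2.13), and the lowest ratios were those of Uqcrh (0.435), Sdhb (0.443) and Ndufb2 (0.462). The lungL library had none higher and 24 lower of 74 (13.3% and 6.23%), with a median ratio of 0.621 and 2 ratios above 1 (54.7% of all genes), the lowest being Ndufc2 (0.330), Cox6b1 (0.335) and Atp5e (0.361). Sdhb was thus below the LN line in both lung lines in bulk and in single cells alike.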

How the data were processed

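Bulk RNA-seq libraries were made by a modified SMART-seq2 protocol with Nextera XT. Per the study's methods reads were aligned with STAR to mm10 and quantified with RSEM on GENCODE v21, and the authors deposited TPM, which carry no depth, and the methods state a minimum number of reads but not the depth of each library. Single-cell libraries were made with the ddSeq SureCell 3' kit and processed with Ddseeker and kallisto, and the authors deposited counts per gene and cell; whether molecular identifiers were collapsed is not given in the sources used here. The submitters' processing notes name STAR, RSEM, kallisto and mm10. Versions are not given in the sources used here.

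Members were matched through the gene names of a single-cell table, which named 35849 of 55450 identifiers. Members and lists were chosen with earlier results of these data known. Genes reaching 1 TPM in 2 or more libraries were tested with limma 3.58.1 in R 4.3.3 (lmFit and eBayes with trend) on log2(TPM + 1), with 7 group means and 7 residual degrees of freedom, and p-values were adjusted by Benjamini-Hochberg over 15348 genes. An exact permutation test of 2 against 2 cannot go below p = 0.333. The limma script was tested on simulated data. Single cells were summed per library with pandas 2.3.3, numpy 2.4.6 and scipy 1.17.1, without such a test. Alternatives were median-ratio scaling over 8694 genes, TPM recomputed without mitochondrial genes, a pseudocount of 0.1, no filter, a replicate block, an absolute log2 fold change over 1, each library left out and, chosen after seeing the data, removal of the GC and length trend.

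The genes named were all mitochondrial members, the paralog sets, the catalytic core, the 3 largest rises and falls per comparison among nuclear members called without overlap, the highest member of each complex and the 3 largest single-cell ratios in each direction with intervals apart. Other members given were chosen after their values were seen. The values of 1 core member are not reported here.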

Additional observations from a re-analysis of the deposited data

Results flagged for a closer look

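The CD44 difference (CD44high against CD44low) was larger or smaller in lung than in LN for 8 nuclear and 6 mitochondrial members, and than in BM for 6 nuclear and 1 mitochondrial member, by limma's interaction test. Both tests share the 4 lung libraries. With 2 libraries a group, there was no check of a library against the rest of its group.

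Against LN the interaction, on the log2(TPM + 1) scale, was 1.73 for Atp5h, 1.497 for Atp5a1, 1.36 for Sdhd and -1.43 for Atp5o. It was 4.06 for mt-Nd3, 3.07 for mt-Nd2, 2.47 for mt-Co2, 2.32 for mt-Nd5, 2.31 for mt-Nd6 and 2.29 for mt-Atp8. Against BM it was 1.86 for Atp5h, 1.24 for Atp5a1, 1.05 for Ndufs8, -1.21 for Cox6a2 and 1.91 for mt-Nd2. Ndufa4l2 (-6.42 against LN and -6.67 against BM) and Cox6b2 (-1.69 in both) were listed at 0 in lung CD44high, so the pseudocount sets the size of these differences. Atp5a1 (in both tests), Sdhd, Ndufs8 and Cox6a2 did not pass with median-ratio scaling, nor did mt-Nd6 (adjusted p = 0.061) and mt-Atp8 (0.13) against LN and mt-Nd2 against BM (0.072). With the GC and length trend removed, the interaction against LN was 0.47 for mt-Atp8 (adjusted p = 0.68), 1.51 for mt-Nd6 (0.11) and 2.87 for mt-Nd3 (0.054), none of which passed, and Atp5a1 did not pass against BM (0.094). The low mitochondrial RNA of replicate 2 of BM CD44low enters the second test, and its part was not tested.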

How the results depend on the processing

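TPM hold no depth, so the depth behind a bulk value is not known beyond the minimum the study sets, and with 2 libraries a group the spread rests on few samples. Alternatives were scored only for results already called: all called mitochondrial members and the largest called rises and falls of nuclear members per comparison. None of these could gain the threshold, and members not called were not scored. Median-ratio scaling kept 69 of these calls and lost 19. GC and length removal kept 78 and lost 10, and a replicate block kept 79 and lost 9. Without a filter 74 were kept and 14 lost, and with a pseudocount of 0.1, 86 and 2. The direction reversed in 0. Unless given, the cause of a change was not tested.

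Nuclear members called changed as follows. Median-ratio scaling gave 1 in place of 2 in LN CD44low, 15 in place of 8 in LN CD44high and 18 in place of 9 in BM CD44high, each against MFP, and 4 in place of 8 and 3 in place of 6 for the lung interaction with LN and with BM. Without a filter the count was 1 in LN CD44low, 7 in place of 13 in BM CD44low, 5 in place of 8 for CD44 averaged over organs and 3 for the BM interaction. A pseudocount of 0.1 gave 4 in LN CD44low, and GC and length removal 13 in LN CD44high. An absolute log2 fold change over 1, which by its construction leaves fewer, gave 0 in LN CD44low, 2 in LN CD44high, 7 in BM CD44low, 3 in BM CD44high, 21 in place of 35 in lung CD44low, 7 in place of 16 in lung CD44high, 10 in place of 19 for CD44 in lung, 1 averaged and 8 in place of 46 for lung against LN and BM.

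Mitochondrial members called in lung CD44high against MFP were 5, and 2 with median-ratio scaling, 3 with GC and length removal and 1 without a filter. Median-ratio scaling gave 0 in place of 1 in BM CD44low and for the BM interaction, GC and length removal 3 in place of 6 for the LN interaction, and a fold change over 1 left 2 in place of 4 averaged.

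Same-numbered libraries of different groups had correlations of deviations of -0.194 to 0.168 over 21 pairs of groups, 3 of them over 0.1, and the libraries were treated as unpaired. Since all lines came from 10 mice, some libraries may share a mouse, and which ones is not given in the sources used here. The fit with a replicate block gave 1 nuclear member in LN CD44low, where Ndufb2 was no longer called (adjusted p = 0.065), 3 for the BM interaction and 2 mitochondrial members in lung CD44high, and other counts stayed within 1.5-fold.

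With each library left out in turn, a lone library being assumed to vary like the other groups, nuclear counts against MFP were 0 to 4 in LN CD44low, 2 to 14 in LN CD44high, 2 to 24 in BM CD44low, 1 to 15 in BM CD44high, 13 to 41 in lung CD44low and 4 to 25 in lung CD44high. They were 0 to 0 for CD44 in LN, 0 to 11 in BM, 9 to 27 in lung, 4 to 26 averaged, 36 to 52 for lung against LN and BM, and 5 to 13 and 3 to 9 for the LN and BM interactions. Mitochondrial counts were 0 to 0 in both LN groups and for CD44 in LN, 0 to 11 in BM CD44low, 0 to 2 in BM CD44high, 3 to 11 in lung CD44low, 0 to 7 in lung CD44high, 0 to 8 for CD44 in BM, 4 to 11 in lung, 2 to 10 averaged, 4 to 8 for lung against LN and BM, and 3 to 11 and 0 to 9 for the interactions.

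In single cells, nuclear shares of counts were 1.82% in lungH and 1.93% in lymphH for cells with more than 500 genes, 1.74 and 1.93% without the mitochondrial limit, and 1.80 and 1.99% with mitochondrial members out of the denominator. As means of shares per cell they were 1.63% in lungH, 1.26% in lungL and 2.04% in lymphH. Mitochondrial shares in lungH, lungL and lymphH were 1.79, 0.578 and 1.17% for cells with more than 500 genes, 2.40, 0.639 and 2.35% with a limit of 20%, 2.82, 0.689 and 2.77% without a limit and 3.01, 0.958 and 4.19% as means of shares per cell.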
